A study of Mus musculus with 677 samples.

Results

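The genes described here are 9 transcription factors of the intestinal epithelium, Hnf4a, Hnf4g, Cdx1, Cdx2, Klf4, Klf5, Gata4, Gata6 and Sox9. They were chosen by name, for their known roles in the absorptive lineage and its crypt precursors, and are 9 of the 23420 genes in the expression table. Their levels were followed along the path from Stem cells through transit-amplifying (TA) cells, Enterocyte.prog.early and Enterocyte.prog.late progenitors to the Enterocyte, and set beside 4 secretory types, Goblet, Paneth, Enteroendocrine and Tuft.

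The study profiled 677 single epithelial cells from the intestine of C57BL/6 mice with SMART-Seq2, which reads full-length transcripts of cells sorted one by one. Of these, 50.5% came from Atg16l2-/- mice (KO), which lack a relative of the autophagy protein ATG16L1, and 49.5% came from wild-type mice (WT). Each genotype carried the codes M1 and M2, read here as 2 animals, and the cells of each animal were split over 2 runs. The runs are named in the sample titles, which do not say what a run stands for. The cell types are the authors' own names; how they were assigned is not given in the sources used here, so the 9 factors may have had a part in it, and levels across types are given as a description without a test.

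Levels are in TPM, transcript abundance scaled to transcript length and to the cell's total. The targeted gene Atg16l2 was above 0 TPM in 0% of KO cells, a count that allows a share of up to 0.877%, and in 38 WT cells (11.3%). A median of 6109 genes per cell was above 0 TPM, with medians between 5134 in Paneth cells and 6713 in early progenitors. Run 1 had a median of 6477 genes per cell and run 2 one of 5730.5, and TPM keeps no record of read depth. Summed marker levels were highest in the type of the same name for Stem, TA, Enterocyte, Goblet, Paneth, Enteroendocrine and Tuft cells, whereas the 2 progenitor lists were highest in the Enterocyte. Goblet cells went against one of their markers, Clca1, at 2.62 TPM, and carried a mean of 31121 TPM of Paneth markers. Single markers of other types also peaked elsewhere, Lgr5 of the Stem list in Tuft cells and Mmp7 of the Paneth list in Goblet cells. Mki67 and Ccnb1 of the TA list were highest in early progenitors. There were 22 Paneth, 32 Enteroendocrine and 7 Tuft cells, with 1 Tuft cell from WT M1, so levels in these types rest on few cells.

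HNF4A and HNF4G are nuclear receptors that bind the same DNA element and together maintain the enterocyte programme of lipid handling and brush-border genes in the mouse. CDX1 and CDX2 are homeodomain factors of intestinal identity. The zinc-finger proteins GATA4 and GATA6 act in regional identity along the gut and in the crypt, KLF5 is tied to crypt proliferation and KLF4 to goblet cell maturation. SOX9 is a Wnt-responsive factor of the crypt base and of several secretory cells.

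Promoter sequence was at hand in RefSeq (GRCm38.p6) for 3 of the 9 genes, and the windows of Hnf4a and Cdx2 are shown because the mean levels of these genes were lower in Enterocytes than in Stem cells in all 4 animals, unlike that of Hnf4g. Hnf4a has 2 annotated starts, 40298 bases apart, and a gene-level TPM does not tell transcripts of the 2 starts apart. Each run below holds the 250 bases before a start, with matches on either strand to 5 motifs in capitals: AGATAA for GATA factors, CATAAA for CDX, CAAAGT for HNF4, GTTAAT for HNF1 and GGGTGG for KLF. The motifs do not overlap in these windows.
Hnf4a, first start, chr2:163506607-163506856, plus strand: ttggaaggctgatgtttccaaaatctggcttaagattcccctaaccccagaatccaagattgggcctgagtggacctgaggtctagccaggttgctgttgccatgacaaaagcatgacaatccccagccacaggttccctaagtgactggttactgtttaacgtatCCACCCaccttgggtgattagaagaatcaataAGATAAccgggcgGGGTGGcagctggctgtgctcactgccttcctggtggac
Hnf4a, second start, chr2:163546905-163547154, plus strand: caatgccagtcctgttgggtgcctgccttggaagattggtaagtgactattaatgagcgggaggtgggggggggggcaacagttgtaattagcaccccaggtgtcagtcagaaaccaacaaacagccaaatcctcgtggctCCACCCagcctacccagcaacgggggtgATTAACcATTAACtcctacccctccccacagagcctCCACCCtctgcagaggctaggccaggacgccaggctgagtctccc
Cdx2, chr5:147307250-147307499, minus strand: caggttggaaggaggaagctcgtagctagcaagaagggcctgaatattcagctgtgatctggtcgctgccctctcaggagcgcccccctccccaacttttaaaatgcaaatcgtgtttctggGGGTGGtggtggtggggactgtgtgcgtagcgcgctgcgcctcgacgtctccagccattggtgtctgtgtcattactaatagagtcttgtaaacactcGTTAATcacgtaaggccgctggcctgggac
The window of the first Hnf4a start held 1 GATA and 2 KLF matches. That of the second start held 2 HNF1 and 2 KLF matches, and that of Cdx2 held 1 HNF1 and 1 KLF match. Of 32851 RefSeq windows of the same length, 9.99% held the GATA motif, 10.8% the CDX motif, 12.6% the HNF4 motif, 6.43% the HNF1 motif and 28.1% the KLF motif. The window of Klf4, on chr4:55532476-55532725 of the minus strand, held no match to any of the 5 and was 74% G or C.

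All 9 factors were detected, but their levels spanned more than an order of magnitude. In 6 types, from Stem to Enterocyte and Goblet, every animal gave 10 or more cells. Over their 24 profiles Klf5 averaged 197.1 TPM, Cdx1 141.8, Hnf4a 141.3, Cdx2 81.3, Hnf4g 66.2, Gata4 56.4, Sox9 25.6, Gata6 20.5 and Klf4 7.22. Klf5 ranked 699 and Klf4 ranked 7645 of 23420 genes by this mean. A median of 7 of the 9 factors was above 0 TPM in a Stem cell, 8 in a TA cell, 8 in an early progenitor, 7 in a late progenitor and 7 in an Enterocyte. All 9 were above 0 together in 25.7% of Goblet cells and in 1.33% of late progenitors, where Klf4 was the factor least often detected.

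**Figure D1:**
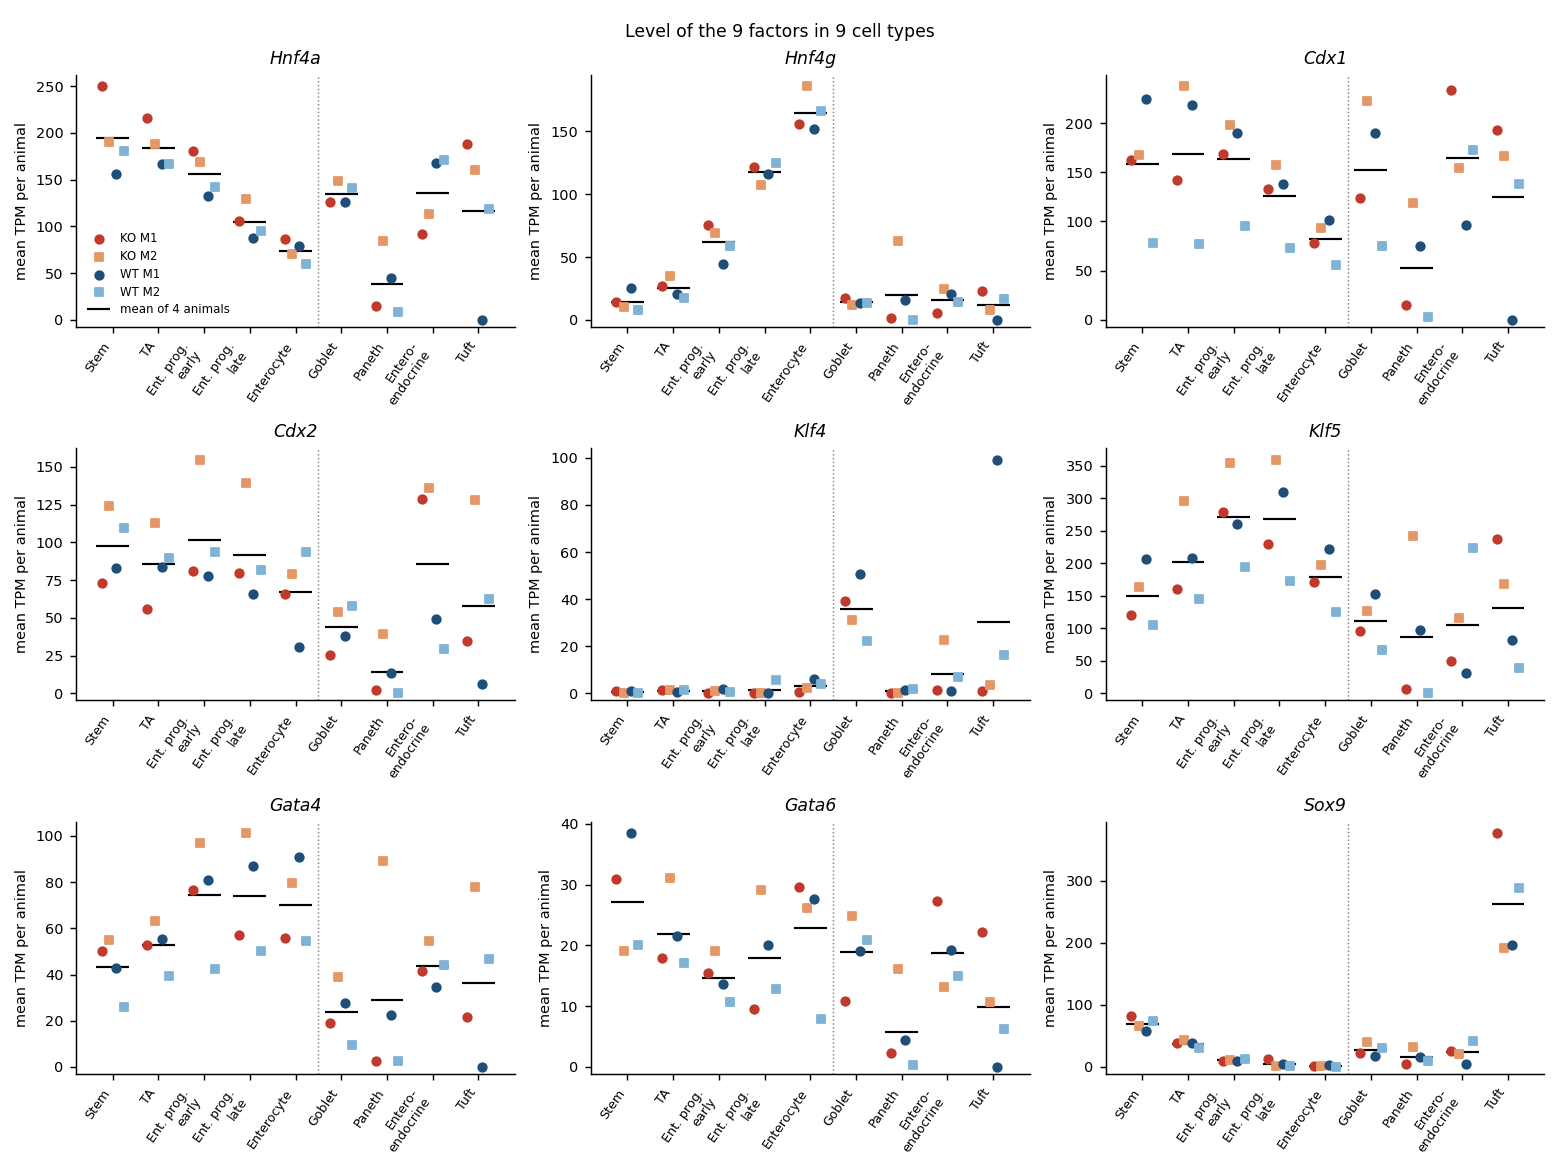
Mean TPM of each factor (y axis) in 9 cell types (x axis), 1 point per animal with KO left of WT, and the mean of 4 animals as a line; the dotted line parts the absorptive path from the secretory types. Hnf4g is highest in Enterocytes at 164.8 TPM, Sox9 is lowest there at 1.94 TPM and highest in Tuft cells at 263.02 TPM, and Klf4 is near 0 along the absorptive path.

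The 2 HNF4 receptors ran in opposite directions along the absorptive path. Hnf4a was highest in Stem cells, at 249.9 and 190.8 TPM in KO M1 and KO M2 and 156.1 and 180.5 TPM in WT M1 and WT M2. In Enterocytes it stood at 86.9 and 70.1 TPM in the KO animals and 79 and 60 TPM in the WT animals. No Enterocyte value reached any Stem value. The stage means of 4 animals were 194.3 ± 39.8, 184.1 ± 23.4, 155.95 ± 22.3, 104.4 ± 17.8 and 74 ± 11.6 TPM (SD, n = 4 animals) in path order, and 15 of the 16 steps from one stage to the next within an animal went down. The exception was the step from Stem to TA in WT M1. On the log2(TPM + 1) scale Hnf4a was lower in Enterocytes than in Stem cells by a mean difference of -1.37 ± 0.27 (SD, n = 4), and the difference was negative in each animal of each run. Hnf4a was nevertheless above 0 TPM in all 58 Enterocytes and all 96 Stem cells, so the lower mean went with lower values per cell, not with cells at 0.

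Hnf4g was near the bottom of its range in Stem cells, at 14.1 and 10.3 TPM in KO M1 and KO M2 and 25.5 and 7.90 TPM in WT M1 and WT M2. It stood at 155.4 and 185.7 TPM in KO Enterocytes and 151.9 and 166.3 TPM in WT Enterocytes. The ranges of the 4 animals did not overlap between TA, early progenitor, late progenitor and Enterocyte, whose means were 25.1, 61.9, 117.3 and 164.8 TPM. The difference between Enterocyte and Stem was 3.54 ± 0.77 on the log2 scale (SD, n = 4), at percentile 97.4 of the 6714 genes kept, whose median difference was -0.24. Of 16 steps, 15 went up, and the exception was again Stem to TA in WT M1. Cells with any Hnf4g made up 67.7% of Stem cells (95% exact binomial interval 57.4 to 76.9%), 80.6% of TA cells, 97.2% of early progenitors and 100% of 58 Enterocytes. Such intervals cover the counting of cells only.

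As a share of the summed Hnf4a and Hnf4g TPM, Hnf4g made up 7.18 ± 4.60% in Stem cells, 11.9 ± 2.65% in TA cells, 28.2 ± 2.03% in early progenitors, 53.1 ± 5.34% in late progenitors and 69 ± 4.73% in Enterocytes (SD, n = 4). The crossing point, where both receptors had about the same TPM, fell in the late progenitor: the share there was 53.5 and 45.4% in KO M1 and KO M2 and 56.8 and 56.7% in WT M1 and WT M2. In single cells Hnf4g exceeded Hnf4a in 3.13% of Stem cells, 2.29% of TA cells, 12.7% of early progenitors, 53.3% of late progenitors (41.4 to 65%) and 84.5% of Enterocytes (72.6 to 92.7%). The higher share of Hnf4g was therefore seen in counts of single cells and not only in averages over them. Each cell was measured at a single time, so these counts compare different cells and follow no cell along the path. In Goblet cells Hnf4g exceeded Hnf4a in 1 of 70 cells, and its share of the sum was 9.41 ± 2.04%, close to that in Stem and TA cells. Enteroendocrine cells had a share of 10.6 ± 5.23%.

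**Figure D2:**
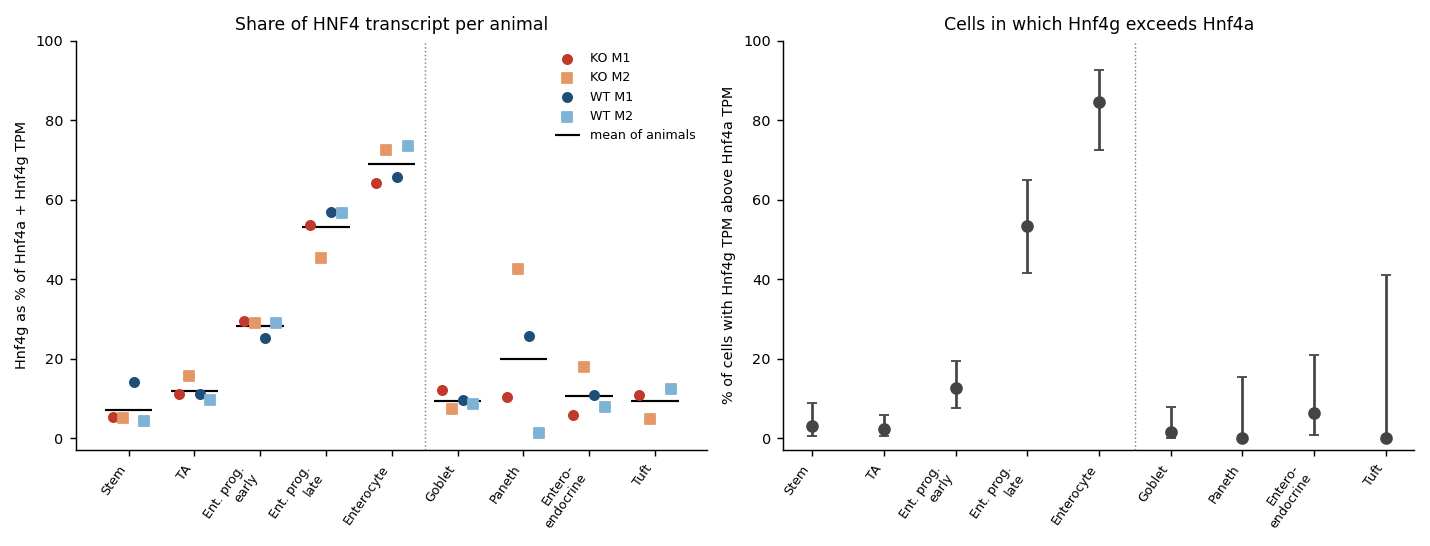
Left, Hnf4g as a percentage of Hnf4a plus Hnf4g TPM (y axis) in each cell type (x axis), 1 point per animal with KO left of WT; right, the percentage of cells in which Hnf4g TPM exceeded Hnf4a TPM, with 95% exact binomial intervals. The share is 7.18% in Stem cells, 69% in Enterocytes and 9.41% in Goblet cells.

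The genes most like each receptor over the 24 profiles of 6 types and 4 animals differed in kind. For Hnf4g they were Enpep, a brush-border aminopeptidase (Pearson r = 0.98), Acy1, an aminoacylase (0.98), and Mttp, which loads lipid onto apolipoprotein B (0.97). For Hnf4a they were Ephb4, a receptor tyrosine kinase (0.95), Mcm4, a subunit of the replicative helicase (0.94), and Hnrnpr, an RNA-binding protein (0.94). Between the receptors themselves r was -0.74. These profiles share animals and cell type, so the coefficients describe the path and carry no p. Enpep stood at 1.56 TPM in Stem cells and 473 TPM in Enterocytes, and Mcm4 at 93.7 TPM in Stem cells and 0.388 TPM in Enterocytes (means of 4 animals).

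From a list of 20 enterocyte genes known to be bound by HNF4 in the mouse, 18 were kept, and all 18 were higher in Enterocytes than in Stem cells in all 4 animals, with a median difference of 4.57. Apoa1, the main HDL apolipoprotein, differed by 6.97 ± 0.44, and Apob, the chylomicron scaffold, by 2.82 ± 0.11 (log2, SD, n = 4). Over all 6714 genes kept, 25.2% were higher and 36.6% lower in all 4 animals. Of 16 kept genes from a list of other absorptive and nuclear receptor factors, 6 were higher and 4 lower in all 4. Creb3l3, a regulator of lipid genes, differed by 5.27 ± 0.84, and Ppara, the fatty acid sensor, by 1.33 ± 0.33, whereas Hes1, the Notch effector that holds cells on the absorptive side, differed by -2.31 ± 0.52. These lists follow the axis by which the types are named, and are no independent evidence on the factors.

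The CDX pair was broadly expressed. Cdx1 averaged 158.3, 168.9 and 162.99 TPM in Stem, TA and early progenitor cells, 125.5 in late progenitors and 82.3 in Enterocytes. In Enterocytes it stood at 78.6 and 93.3 TPM in KO M1 and KO M2 and 101.3 and 55.9 TPM in WT M1 and WT M2, and each animal was below its own Stem value. The difference was -0.88 ± 0.29 (log2, SD, n = 4), negative in every animal in both runs. Among secretory types Cdx1 was at 152.8 TPM in Goblet and 164.3 TPM in Enteroendocrine cells, and no pair of neighbours in the order of its 9 levels had ranges that did not overlap.

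Cdx2, the factor whose loss in the mouse turns intestinal epithelium toward a gastric state, was flatter along the path, at 97.5, 85.4, 101.9, 91.7 and 67.3 TPM. Its Enterocyte minus Stem difference was -0.61 ± 0.58 (SD, n = 4) and was negative in all 4 animals over both runs together, but in 2 of 4 animals in run 1 and in 3 of 4 in run 2. Goblet cells had less of it, 25.8 and 54 TPM in KO M1 and KO M2 and 37.9 and 58.2 TPM in WT M1 and WT M2, with means of 44 ± 14.9 TPM there and 67.3 ± 26.9 TPM in Enterocytes. These ranges overlapped. Cdx2 was above 0 TPM in 72.9% of 70 Goblet cells (60.9 to 82.8%) and in 95.1% of early progenitors (90.1 to 98%).

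Over the 24 profiles, which mix stage and animal, r was 0.081 between Cdx1 and Cdx2 and 0.15 between Gata4 and Gata6. Both Cdx genes were lower in Enterocytes than in Stem cells in all 4 animals. WT M1 exceeded WT M2 for Cdx1 and was below it for Cdx2 in each of 6 types, so the low r does not speak for the path alone. Cdx2 made up 39.7 ± 14% of the summed CDX TPM in Stem cells and 24.3 ± 13% in Goblet cells. Among the genes most like Cdx1 were Grsf1, an RNA-binding protein (r = 0.81), and Srsf2, a splicing factor (0.80). Those most like Cdx2 were Dnmbp, a Cdc42 exchange factor (0.87), Dpf2, a chromatin remodelling subunit (0.84), and Oxa1l, a mitochondrial membrane insertase (0.81). Of 15 genes on a list of CDX targets, all kept, 11 were higher in Enterocytes in all 4 animals and 1 was lower. Over all genes kept these shares were 25.2 and 36.6%. This list, too, follows the axis by which the types are named, and is no independent evidence on the CDX factors. Sis, the sucrase-isomaltase gene and a classical CDX2 target, differed by 8.32 ± 0.55, and the exception Vdr, the vitamin D receptor, by -0.97 ± 0.36 (log2, SD, n = 4).

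Klf5 was the most abundant of the 9 in progenitors, at 278.8 and 354.1 TPM in KO M1 and KO M2 early progenitors and 261.1 and 194.96 TPM in WT M1 and WT M2. Its stage means were 149.5, 202.5, 272.3, 267.9 and 179.5 TPM, and its highest stage was an early or late progenitor in every animal. In Stem cells it stood at 120.96 and 164.1 TPM in the KO animals and 207.4 and 105.6 TPM in the WT animals. The end points of the path were thus close, with an Enterocyte minus Stem difference of 0.28 ± 0.16 (log2, SD, n = 4), which was -0.025 after quantile normalization of the profiles. In run 1 the difference was positive in 4 of 4 animals and in run 2 in 2 of 4. Klf5 was above 0 TPM in 100% of TA cells and of early and late progenitors.

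Gata4 averaged 43.4, 52.7, 74.2, 73.8 and 70.1 TPM along the path. Its highest stage was an early progenitor in KO M1, a late progenitor in KO M2 and the Enterocyte in WT M1 and WT M2, so the animals shared no peak. In Stem cells it stood at 50.3 and 54.9 TPM in KO M1 and KO M2 and 42.7 and 25.8 TPM in WT M1 and WT M2, and in Enterocytes at 55.8 and 79.6 TPM in the KO animals and 90.8 and 54.3 TPM in the WT animals. The difference was 0.70 ± 0.44 (log2, SD, n = 4), positive in all 4 animals over both runs together, in 3 of 4 in run 1 (lowest -0.31) and in 4 of 4 in run 2. Goblet cells had the lowest mean of all 9 types, 23.8 ± 12.7 TPM, and were 58.6% positive (46.2 to 70.2%), against 94.8% of Enterocytes (85.6 to 98.9%). The range of the 4 animals in Goblet cells lay below that in Enterocytes.

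Over the 24 profiles Klf5 and Gata4 were each among the 3 genes most like the other, at r = 0.87. Klf5 was also like Gsr, glutathione reductase (0.88), and Cdk16, a cyclin-dependent kinase (0.88), and Gata4 like Mlf2 (0.88) and Cyp2s1, a cytochrome P450 (0.87). Animals as well as stages differed in these genes: for Cdx1, Klf5 and Gata4 alike, WT M2 had the lowest value of the 4 animals in 6 of 6 cell types. For Klf5 and Gata4, and for Cdx1, WT M1 exceeded WT M2 in 6 of 6 types, by mean ratios of 1.76 ± 0.34, 1.88 ± 0.54 and 2.32 ± 0.48 (SD over 6 types). KO M2 exceeded KO M1 in 6 of 6 types for the same 3 genes and for Cdx2, by mean ratios of 1.42 ± 0.25 for Klf5, 1.47 ± 0.38 for Gata4, 1.34 ± 0.31 for Cdx1 and 1.78 ± 0.32 for Cdx2. For Cdx2 WT M1 was below WT M2 in every one of the 6. The genotype means stood closer together, for Cdx1 at 157.04 ± 31.6 TPM in KO and 126.5 ± 71.5 TPM in WT animals (SD, n = 2 each, average of 6 types).

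Genes linked to GATA4 and to position along the small intestine gave no common order of these animals. Of 16 such genes, the highest Enterocyte level was in KO M1 for 7, KO M2 for 2, WT M1 for 3 and WT M2 for 4, and the lowest, ties included, was in KO M1 for 5, KO M2 for 3, WT M1 for 5 and WT M2 for 5. In Enterocytes Fabp6, the ileal bile acid binding protein, was at 546 and 134.9 TPM in KO M1 and KO M2, at 305.2 TPM in WT M1 and listed at 0 in WT M2. Lct, the lactase gene, was at 98.8 and 98.1 TPM in the KO animals and at 115.5 and 174.9 TPM in the WT animals. Fabp1, a fatty acid binding protein, was at 7341 and 4823 TPM in the KO animals and 2198 and 5916 TPM in the WT animals. Slc40a1, the iron exporter, was at 18.8 and 4.77 TPM in the KO animals and 13.9 and 2.52 TPM in the WT animals. Slc10a2, the ileal bile acid transporter, was at 0.502 and 4.76 TPM in the KO animals and 0.171 and 2.84 TPM in the WT animals. These 5 genes were picked from the list after their values were seen. Of the 16 genes 11 passed the filter on low values. Slc40a1, Cybrd1, Pdx1, Slc10a2 and Fgf15 did not, so the order of the animals by these genes rests on low values. The part of gut region in the levels of Cdx1, Klf5 and Gata4 was not tested.

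**Figure D3:**
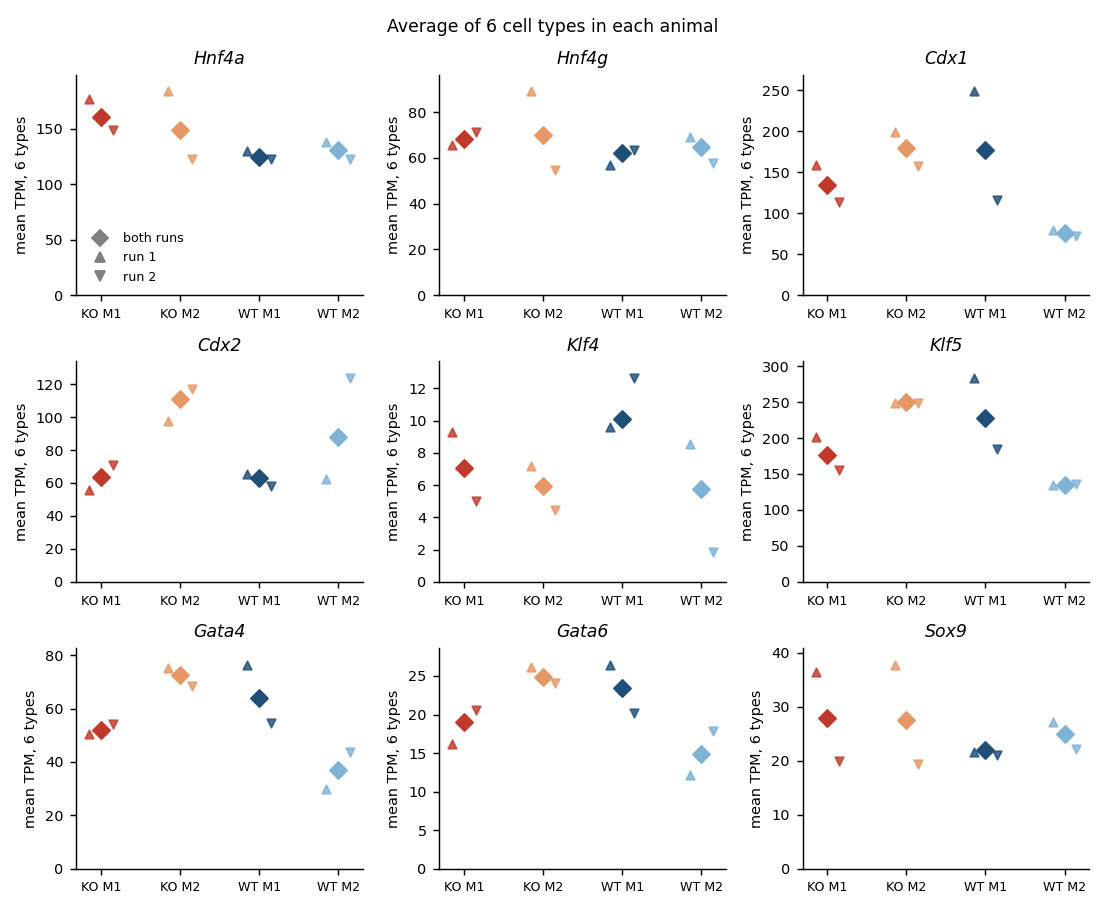
Mean TPM over 6 cell types (y axis) of each factor in each animal (x axis), with diamonds for both runs together and triangles for each run. For Cdx1 WT M2 sits at 76 TPM, below the 134.7, 179.4 and 177.1 TPM of KO M1, KO M2 and WT M1, and it is the lowest in each run.

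Gata6 had a lower mean than Gata4 in each of the 9 types and had no steady course. Its stage means were 27.1, 21.9, 14.7, 17.9 and 22.8 TPM, lowest in early progenitors, and neighbours in the order of its 9 levels overlapped throughout. It made up 38.7 ± 9.48% of the summed GATA4 and GATA6 transcript in Stem cells, 16.9 ± 2.29% in early progenitors and 23.8 ± 9.03% in Enterocytes. In Goblet cells the share was 46.2 ± 15.2%, and Gata6 exceeded Gata4 in 51.4% of 70 cells (39.2 to 63.6%), against 12.7% of early progenitors (7.69 to 19.3%). Its closest genes were less close than those of the other 7 factors compared, Klf4 not being among them: Vps16, a vesicle sorting protein (r = 0.71), Rdh10, a retinol dehydrogenase (0.67), and Mut, methylmalonyl-CoA mutase (0.66). Gata5, another intestinal GATA factor, stood at 53.1 ± 10.3 TPM in Stem cells and 43 ± 4.2 TPM in Enterocytes.

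Klf4 was found mainly in Goblet cells. It stood at 39.1 and 31 TPM in Goblet cells of KO M1 and KO M2 and at 50.6 and 22.2 TPM in those of WT M1 and WT M2, and did not exceed 6.29 TPM in any animal at any stage of the absorptive path. It was above 0 TPM in 62 of 70 Goblet cells (88.6%, 78.7 to 94.9%), in 6.25% of Stem cells (2.33 to 13.1%), in 13.1% of TA cells, in 10.6% of early progenitors, in 8% of late progenitors and in 24.1% of Enterocytes (13.9 to 37.2%). In Goblet cells it made up 24.5 ± 3.74% of the summed Klf4 and Klf5 TPM, and Klf4 exceeded Klf5 in 14.3% of them and in 0 of the 546 cells of the absorptive path, a count that allows a share of up to 0.549%. In Tuft cells 99.1 TPM came from the single cell of WT M1, next to 1.23 and 3.77 TPM in the KO animals and 16.3 TPM in WT M2. Atoh1, the switch of secretory fate, was at 372.5 ± 51 TPM in the same Goblet cells. Of 15 other Klf genes 3 were kept, and Klf6, an early response factor, was higher in Enterocytes than in Stem cells in all 4 animals, by 2.21 ± 0.35 (log2, SD, n = 4).

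On the log2(TPM + 1) scale Sox9 had the largest Stem to Enterocyte difference of the 9. In Stem cells it stood at 81.7 and 65.5 TPM in KO M1 and KO M2 and 57.7 and 74.7 TPM in WT M1 and WT M2, and in Enterocytes at 2.24 and 2.09 TPM in the KO animals and 2.96 and 0.451 TPM in the WT animals. The stage means were 69.9, 37.8, 10.7, 5.35 and 1.94 TPM, and the difference between Enterocyte and Stem was -4.67 ± 0.76 (log2, SD, n = 4), at percentile 0.834 of the genes kept. With 10 TPM added before the log in place of 1, it was -2.74 for Sox9 and 2.88 for Hnf4g, so Sox9 was not the largest there. Cells with any Sox9 made up 97.9% of Stem cells, 94.3% of TA cells, 70.4% of early progenitors, 28% of late progenitors (18.2 to 39.6%) and 27.6% of Enterocytes (16.7 to 40.9%). For Sox9, unlike Hnf4a, the lower mean thus went with cells at 0.

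Tuft cells had the most Sox9 of any type. The values were 376.5 and 191.2 TPM in KO M1 and KO M2 and 196.5 and 287.8 TPM in WT M1 and WT M2. All lay above every Stem value and came from 7 cells in all. In these Tuft cells the Stem marker Lgr5 was at 169.5 and 12 TPM in the KO animals. It was at 0 and 332.7 TPM in WT M1 and WT M2. Goblet cells averaged 27.8 ± 10.4 TPM and were 90% positive (80.5 to 95.9%). Paneth cells, in which SOX9 is needed for differentiation in the mouse, averaged 15.6 ± 11.7 TPM, yet all 22 were positive. Of the 8 factors that passed the filter on low values, which leaves out Klf4, Sox9 had the strongest negative likeness to Hnf4g (r = -0.90) and the strongest positive one to Hnf4a (0.85). The 3 genes most like it were Nap1l1, a histone chaperone (r = 0.95), Slc12a2, a sodium, potassium and chloride cotransporter of the crypt (0.95), and Fads1, a fatty acid desaturase (0.94).

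All 11 kept genes from a list of 18 Wnt-pathway and crypt genes were lower in Enterocytes than in Stem cells in all 4 animals. Their median difference was -5.09, and 36.6% of all genes kept were lower in all 4. Lgr5, Ascl2, Slc12a2, Axin2 and Olfm4 of this list also served as Stem markers. The lists given here follow the axis by which the types are named, and are no independent evidence on Sox9. Axin2, the feedback inhibitor of Wnt signalling, differed by -3.93 ± 0.38, and Ascl2, a stem cell factor, by -6.71 ± 0.82. From 20 proliferation genes, all kept, 15 were lower in all 4 animals, with a median of -2.13. Among 7 kept factors of the secretory lineages 1 was higher and 2 were lower in all 4, and from the list of other Cdx, Gata and Sox genes Gata5 alone was kept, at -0.28 ± 0.18 (log2, SD, n = 4).

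**Figure D4:**
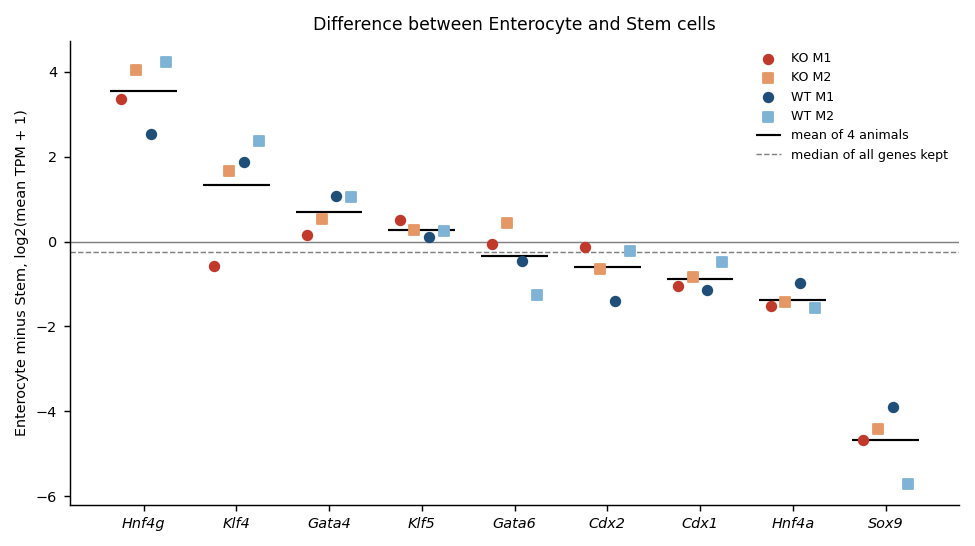
Enterocyte minus Stem difference of log2(mean TPM + 1) (y axis) for the 9 factors (x axis, in order of the mean), 1 point per animal with KO left of WT, the mean as a line and the median of all genes kept as a dashed line. Hnf4g (3.54) and Sox9 (-4.67) lie at the ends, and 7 factors have all 4 animals on one side of 0. Of all genes kept, 25.2% were higher and 36.6% lower in all 4 animals.

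Across the 9 factors the differences fell in 3 groups. Hnf4g, Gata4 and Klf5 were higher in Enterocytes than in Stem cells in all 4 animals. Hnf4a, Cdx1, Cdx2 and Sox9 were lower in all 4, and Klf4 and Gata6 had animals on both sides. Of all 6714 genes kept, 25.2% were higher and 36.6% lower in all 4, so a sign shared by the animals was common. Among the genes kept Hnf4a stood at percentile 16.8, Cdx1 at 29.1, Cdx2 at 37.1, Klf5 at 67.2 and Gata4 at 78.5. Removing the 100 most abundant genes and rescaling TPM shifted the median of all genes to -0.52, against -0.24 as deposited, and quantile normalization shifted it to -0.11. Hnf4g stayed at percentile 97.4 to 97.5 and Sox9 at 0.787 to 1.04 under these scalings, while Klf5 was positive in 1 of 4 animals under each.

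Paneth cells had the lowest mean of the 9 types for Hnf4a, Cdx1, Cdx2, Klf5 and Gata6. The spread between animals was wide: Hnf4a stood at 14.7 and 83.9 TPM in KO M1 and KO M2 and 44.7 and 8.60 TPM in WT M1 and WT M2, and Klf5 at 6.59 and 242.9 TPM in the KO animals and 97.2 and 0.658 TPM in the WT animals. The animal with the highest levels, KO M2, had 3 Paneth cells. Summed Paneth markers, such as the lysozyme gene Lyz1 and defensins, took 41.7 and 12.8% of all TPM in the Paneth cells of KO M1 and KO M2 and 28.9 and 39.1% in those of WT M1 and WT M2. The order of the animals by these markers was the reverse of their order by Hnf4a, apart from KO M1 and WT M2, and the part of the markers in the low levels was not tested. The median Paneth cell had 5.34 TPM of Hnf4a and 1.34 TPM of Klf5, well under the means of 38 and 86.8 TPM, so a few cells carried most of the transcript.

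The second comparison was of genotype: whether loss of Atg16l2 changed the level of the factors, in each of these 6 types and on average over them. None of the 9 passed the test in any comparison. Tests in each type and in the average used limma on log2(mean TPM + 1) with the animal as the unit, 2 KO against 2 WT. The F test for a difference that varied over the 6 types took the 24 profiles as units. It had no term for the animal, so profiles of 1 animal counted as independent. Benjamini-Hochberg adjustment was over all genes kept. The p-values of these comparisons by animal rest on the spread between animals of a genotype, pooled over both genotypes. This spread is moderated toward a trend fitted over all genes kept, so part of it is borrowed from other genes. Median genes per cell above 0 TPM were 6211.5 and 6150 in KO M1 and KO M2 and 6020 and 6053 in WT M1 and WT M2. Of all genes tested, 0% of 6714 passed an adjusted p of 0.05 in the average, where 510 had an unadjusted p under 0.05 and the smallest adjusted p was 0.219. The share that passed was 0% in Stem, 0.0589% in TA, 0% in Enterocyte.prog.early, 0.0817% in Enterocyte.prog.late, 0.0342% in Enterocyte and 0.0161% in Goblet cells, and 0.0149% for a KO minus WT difference that varied over the 6 types. With so few calls over the whole table, 0 of 9 factors was no departure from the background. The targeted gene Atg16l2 averaged 0 TPM in both KO animals and 5.23 and 6.56 TPM in WT M1 and WT M2. These levels lie under the filter on low values. In an unfiltered fit of the average, the log2 difference of Atg16l2 was -1.72, with a limma adjusted p of 0.854. The test thus missed the loss of this low gene. The lack of a call for the factors does not show that their levels were unchanged.

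Hnf4a had the narrowest interval. Averaged over 6 types it stood at 160.7 and 149.02 TPM in KO M1 and KO M2 and at 124.7 and 130.9 TPM in WT M1 and WT M2. Both KO animals were above both WT animals, as they were in Stem, TA, early and late progenitor cells taken alone. The log2 difference was 0.26 with a 95% interval of -0.038 to 0.55 and a limma adjusted p of 0.684. It was 0.41 in run 1 and 0.12 in run 2, and 0.12 without the run 1 cells of KO M2.

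Sox9 stood at 27.9 and 27.5 TPM in the KO animals and 21.9 and 25 TPM in the WT animals, again without overlap. The difference was 0.31 (-0.17 to 0.80), with a limma adjusted p of 0.746. It was present in run 1, at 0.55, and not in run 2, at -0.033, so the runs did not bear each other out. Hnf4g stood at 68.5 and 69.8 TPM in the KO animals and 62 and 64.7 TPM in the WT animals, a difference of 0.17 (-0.20 to 0.54; limma adjusted p = 0.81) that was -0.089 without the run 1 cells of KO M2. These 3 factors were the ones of 8 kept in which KO and WT animals did not overlap in the average (37.5%), and 39.1% of all genes tested had no overlap.

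For 5 further factors the animals of the genotypes overlapped. The averages of Cdx1 were 134.7 and 179.4 TPM in KO M1 and KO M2 and 177.1 and 76 TPM in WT M1 and WT M2, and its difference of 0.40 had an interval of -0.38 to 1.18 and became -0.19 without WT M2. Gata4 had 52 and 72.5 TPM in the KO animals and 64.1 and 37 TPM in the WT animals, a difference of 0.39 (-0.28 to 1.05) that became -0.036 without WT M2. The differences were 0.21 (-0.40 to 0.83) for Klf5, 0.20 (-0.41 to 0.82) for Gata6 and 0.15 (-0.50 to 0.79) for Cdx2, with limma adjusted p-values between 0.767 for Gata4 and 0.918 for Cdx2 among the 5.

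Klf4 did not pass the filter on low values in the average or in 5 of the 6 types, and its values come from an unfiltered fit, as do those of Sox9 in late progenitors and Enterocytes. Its difference in the average was -0.50 (-1.11 to 0.11; limma adjusted p = 0.854). In Goblet cells, where it was kept, the difference was 0.050 (-0.91 to 1.01), with a limma adjusted p of 0.991. In Enterocytes the KO animals stood at 0.451 and 2.17 TPM and the WT animals at 6.29 and 4.2 TPM, without overlap, and the difference was -1.52 (-3.49 to 0.44; limma adjusted p = 0.842).

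Differences were positive for 8 of the 9 factors in the average, with a median of 0.21 against 0.026 over all genes tested, of which 54.9% were positive. By type, positive differences numbered 5 of 9 in Stem (52.6% of all genes tested), 8 in TA (60.7%) and 7 in early progenitors (59%). They numbered 7 in late progenitors (43.7%), 7 in Enterocytes (46.6%) and 7 in Goblet cells (49.5%). These counts include the unfiltered values of Klf4 and Sox9. KO and WT animals did not overlap for 2 of 8 kept factors in Stem cells (34% of all genes tested), 2 of 8 in TA cells (40%), 4 of 8 in early progenitors (36.2%), 1 of 7 in late progenitors (34.2%), 0 of 7 in Enterocytes (37.9%) and 0 of 9 in Goblet cells (35.8%). The members' shares of 25, 25, 50, 14.3, 0 and 0% lie on both sides of the background.

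An unadjusted p under 0.05 was found for 2 values. Hnf4g in TA cells was at 27 and 34.9 TPM in KO M1 and KO M2 and 20.9 and 17.5 TPM in WT M1 and WT M2, with a difference of 0.65 (0.062 to 1.24) and a limma adjusted p of 0.582. Klf5 in early progenitors was at 278.8 and 354.1 TPM in the KO animals and 261.1 and 194.96 TPM in the WT animals, with a difference of 0.48 (0.0024 to 0.95) and a limma adjusted p of 0.857. Neither held after adjustment. The limma F test for a difference that varied over the 6 types gave adjusted p-values between 0.957 and 1 for the 9 factors. The Hnf4g share of the HNF4 sum was 68.4 ± 5.99% in KO and 69.6 ± 5.45% in WT Enterocytes, and 29.3 ± 0.40% in KO and 27.1 ± 2.75% in WT early progenitors (SD, n = 2 each).

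Paneth, Enteroendocrine and Tuft cells were too few to test, and their values are a description. In Enteroendocrine cells KO and WT animals did not overlap for 2 of 8 factors that passed the filter on low values, beside 33.7% of all genes kept. Hnf4a was at 91.8 and 112.9 TPM in KO M1 and KO M2 and 167.6 and 170.8 TPM in WT M1 and WT M2, and Cdx2 at 128.8 and 136.2 TPM in the KO animals and 49.5 and 29.2 TPM in the WT animals. These values rest on 20 KO and 12 WT cells, of which 3 came from WT M2. In Tuft cells there was no overlap for 4 of 8, beside 32.1% of all genes kept, with Hnf4a, Cdx1 and Klf5 higher and Klf4 lower in KO. Hnf4a and Cdx1 were at 0 TPM in the single Tuft cell of WT M1. In Paneth cells 0 of 7 were without overlap, beside 3.24% of all genes kept. Of the factors under the filter, Klf4 was lower in both KO animals in Paneth cells and Gata6 higher in Tuft cells.

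**Figure D5:**
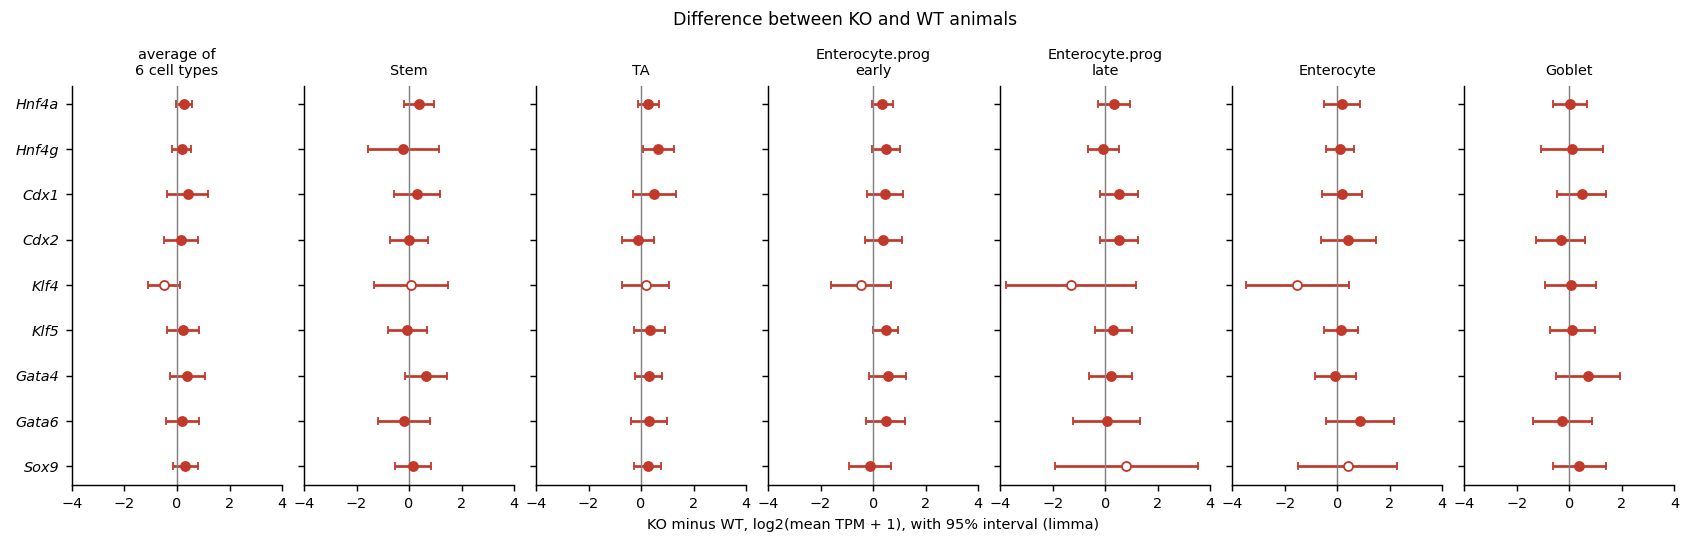
KO minus WT difference of log2(mean TPM + 1) (x axis) with its 95% limma interval for each factor (rows), in the average of 6 cell types and in each type; open circles are values from an unfiltered fit. All intervals of the average cross 0, and Hnf4g in TA (0.65) and Klf5 in early progenitors (0.48) are the ones that do not.

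No gene on the lists of partners and targets passed the same test in the average, and the counts and medians below stand beside a median of 0.026 over all genes. Of 16 kept absorptive and nuclear receptor factors 9 were higher and 7 lower in KO, with a median of 0.036. Creb3l3 differed by 0.67, Foxa3, a forkhead factor, by 0.44, Nr1h3, the oxysterol receptor LXR alpha, by -0.38 and Smad4, the shared BMP and TGF-beta mediator, by -0.29. Of 18 HNF4-bound enterocyte genes 12 were higher and 6 lower (median 0.12). Among these Fabp1 differed by 0.78 and Mttp by 0.41, and the apolipoprotein genes Apoc3 and Apoa1 by -0.70 and -0.090. The smallest limma adjusted p-values of these lists were 0.595 and 0.499.

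Of 15 CDX targets 9 were higher and 6 lower in KO (median 0.11). Sis differed by 0.59 and Mep1b, a brush-border metalloprotease, by 0.43, whereas Guca2b, which encodes uroguanylin, differed by -0.72 and Slc5a1, the sodium and glucose cotransporter, by -0.44, with a smallest limma adjusted p of 0.493. Of 11 GATA4-linked regional genes 7 were higher and 4 lower (median 0.20), with Fabp1 again, Rbp2, a retinol binding protein, at 0.53, Ada, adenosine deaminase, at -0.44 and Cbr1, a carbonyl reductase, at -0.13. Of 3 Klf genes kept, Klf3 differed by 0.38, Klf10 by -0.32 and Klf6 by -0.14, and Gata5 by 0.022.

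Crypt and cycling genes did not pass either. Of 11 Wnt and crypt genes 10 had a positive and 1 a negative difference, with a median of 0.35, where 54.9% of all genes tested were positive. The Lgr5-cell gene Smoc2 differed by 0.35, Rgmb, a BMP coreceptor, by 0.55 and Axin2 by -0.15, and the smallest limma adjusted p was 0.596. Of 20 proliferation genes 15 had a positive difference, with a median of 0.24 and a smallest limma adjusted p of 0.499. Ube2c, a mitotic ubiquitin enzyme, differed by 0.68 and Cdc20, a mitotic regulator, by 0.74. Birc5, survivin, differed by -0.14 and Tyms, thymidylate synthase, by -0.11. Of 7 secretory factors 6 had a positive difference (median 0.088), with Foxa3 as above, Xbp1, a regulator of the secretory machinery, at 0.14 and Creb3l1 at -0.19. The part of these crypt and cycling genes in the Sox9 and Hnf4a values was not tested.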

How the data were processed

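Expression was read as TPM in 677 single cells, 50.5% KO and 49.5% WT. The deposited TPM values, transcript abundance scaled to length and to the cell's total, were computed by the authors. Bowtie, TopHat and RSEM are named in the submitters' processing notes. The genome build is not given in the sources used here, and the labels also name a 10X Genomics preparation. No cell filter or doublet caller was applied, and 0 cell columns were duplicates. TPM keeps no depth, so the precision of low values is unknown.

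TPM was averaged over the cells of an animal and type, then taken as log2(mean TPM + 1). The filter on low values asked for a mean of 10 TPM or more and for 10% or more of cells above 0 TPM. KO was compared with WT in limma 3.58.1 (R 4.3.3; eBayes with trend, two-sided, Benjamini-Hochberg over all genes kept, threshold 0.05) over 4 animals, in 6 types with at least 10 cells per animal. The F test for variation over types took the 24 profiles as units, with no term for the animal. A simulation checked that the script returned the fold changes put into KO cells. It drew the cells of each type across all animals and so did not keep the spread between animals. It does not show how well the test calls genes. The named genes are the 9 factors, per list the 2 genes of smallest unadjusted p in each direction, and the 3 genes of highest Pearson r with each of the 8 factors kept (Klf4 was not), of which 1 is not reported here. For differences along the path, list genes were chosen after their values were seen, and regional genes likewise. Members and lists were chosen with earlier results of these data known. Other settings numbered 14, and 2 further ones were chosen after seeing the data.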

Additional observations from a re-analysis of the deposited data

How the results depend on the processing

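No factor passed the KO against WT test under any of 16 alternatives (other pseudocounts, no filter on low values, log values averaged over cells, quantile normalization, each run alone, runs as units, a replicate block, each animal left out, and others). Of the recomputed member differences in the average 10 reversed and the others kept their sign. With each animal left out in turn the log2 difference ran between -0.19 and 0.99 for Cdx1, -0.25 and 0.54 for Cdx2, -0.18 and 0.61 for Klf5, -0.036 and 0.81 for Gata4 and -0.11 and 0.52 for Gata6. The negative ones came without WT M2 for Cdx1, Klf5, Gata4 and Gata6, without KO M2 for Cdx2, Klf5 (-0.028) and Gata6 (-0.032), and without WT M1 for Cdx2 (-0.12). Without the run 1 cells of KO M2 Hnf4g was at -0.089, and in run 2 alone Sox9 was at -0.033. The cause was not tested. A lone animal of a genotype is assumed there to vary like the other genotype's 2. The Enterocyte minus Stem difference of Klf5 was -0.025 under quantile normalization. With 8 combinations of run and animal as units, 1 factor was higher in Enterocytes in every unit (Hnf4g), against 3 with animals.

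The M numbers are not known to pair the animals: deviations of same-numbered animals correlated at r = -0.13 over 6714 genes. With the number as a replicate block the count of factors passing was 0 in each comparison, as without it. Over all genes the block gave 2 calls in the average, against 0, and 6 against 0 in Stem, 10 against 4 in TA, 0 against 0 in early progenitors, 11 against 5 in late progenitors, 26 against 2 in Enterocytes, 48 against 1 in Goblet cells and 1 against 1 for variation over types. A crossed pairing, chosen after seeing the data, gave 44, 33, 65, 2, 0, 17, 49 and 1 calls in that order of comparisons. Over the alternatives with all 4 animals the lowest count was 0 in each comparison. The highest counts were 44 in the average (0.655% of genes tested), 33 in Stem (0.488%), 65 in TA and 2 in early progenitors. They were 11 in late progenitors, 27 in Enterocytes, 49 in Goblet cells (0.789%) and 69 for variation over types. The 69 came without the filter on low values, where more genes were tested than the 6714 kept. Counts from fits with an animal left out are not given, as 1 animal then stands for a genotype. The limits are 2 animals per genotype, few Paneth, Enteroendocrine and Tuft cells, and TPM without counts.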
